A study of Gallus gallus with 16 samples.

Results

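The receptors through which ovarian granulosa cells read pituitary and steroid hormones were examined in chicken granulosa cells with and without FOXL2 knockdown. The set was named by gene symbol: FSHR, LHCGR, PRLR, PGR, ESR1, ESR2 and NR3C1. All 7 symbols were found, each as 1 of the 18151 gene rows in the files, and all 7 were kept by the filter on low counts in every comparison. RNA-Seq libraries were made from primary granulosa cells of White Leghorn hens of 25 to 30 weeks. The 4 groups of 4 libraries were poGC-KD (cells of pre-ovulatory follicles with FOXL2-siRNA), poGC-CT (the same cells with the nonsense NC-siRNA), phGC-KD (cells of pre-hierarchical follicles of 6 to 8 mm with FOXL2-siRNA) and phGC-CT (pre-hierarchical cells with NC-siRNA). All cells were cultured with 5% serum for 16 h, transfected, and collected 48 h later. Thus every group was transfected, and untransfected cells were not analysed here. The follicles came from 4 hens, but no label tied a replicate number to a hen, so that the p-values measure the spread between these libraries, which may be partly technical. The comparisons asked how each receptor transcript differed between the stages and how it changed when FOXL2 was lowered.

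FSHR and LHCGR encode the receptors of follicle-stimulating hormone and luteinizing hormone, which couple to Gs proteins and raise cAMP in the granulosa cell. PRLR encodes the prolactin receptor, a cytokine-type receptor that signals through JAK2 and STAT proteins. PGR, ESR1, ESR2 and NR3C1 encode the progesterone receptor, the oestrogen receptors alpha and beta and the glucocorticoid receptor, transcription factors that are activated by their steroid. In the hen, granulosa cells acquire steroid output around follicle selection, and the pre-ovulatory granulosa layer is the main source of progesterone. FOXL2 is a forkhead transcription factor of granulosa cells.

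By the study's methods the knockdown and the control differed in the siRNA, and the strands are shown because every KD and CT comparison rests on them. No label used here shows whether KD and CT libraries shared hens, plating or sequencing run. Each strand has a core of 19 bases and an overhang of 2 bases. Capitals mark bases 2 to 8 of the antisense strand, the seed of a guide strand.
FOXL2-siRNA sense: gccucaacgagugcuucautt
FOXL2-siRNA antisense: aUGAAGCAcucguugaggctt
NC-siRNA sense: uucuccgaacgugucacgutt
NC-siRNA antisense: aCGUGACAcguucggagaatt
The cores of each pair are reverse complements of each other. The seeds of the antisense strands differ, and over the core the antisense strands share 8 of 19 bases by position. With 1 FOXL2-siRNA, an effect of its seed on other transcripts and an effect of lower FOXL2 cannot be told apart.

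Library totals were 45697479 to 56121795 counts in poGC-KD, against 36191442 to 53062138 in poGC-CT. They were 29979116 to 44937588 in the phGC-KD libraries, against 30476674 to 32997177 in phGC-CT. No pair of libraries held identical counts, and libraries of a group correlated at r = 0.952 to 0.968 across genes. Levels are given as CPM, the count scaled to the TMM-normalized library size. FOXL2 had 508, 445, 472 and 393 CPM in poGC-KD, against 689, 758, 769 and 724 CPM in poGC-CT, without overlap. The knockdown in poGC had a log2 fold change of -0.68 (standard error 0.079, edgeR adjusted p = 0.000353). In phGC-KD, FOXL2 had 401, 507, 399 and 363 CPM, against 472, 497, 682 and 589 CPM in phGC-CT. There the groups overlapped, and the log2 fold change of -0.43 (standard error 0.14, edgeR adjusted p = 0.0878) did not pass the threshold of 0.05. The unadjusted edgeR p was 0.0131, the fall passed with adjustment in 4 of 15 alternative settings, and its direction was the same in all of them. The study reports a significant fall of FOXL2 in phGC by qRT-PCR of the same RNA, and lower protein by Western blot. The granulosa markers of these cells were present in every group, 10 of 12 listed genes being in the files. For instance CYP11A1, which makes pregnenolone, averaged 554 CPM in poGC-KD, 522 in poGC-CT, 174 in phGC-KD and 158 in phGC-CT. AMH went the other way between stages, at 26.1, 49.0, 1829 and 1597 CPM in the same groups. In poGC-KD, 2 of these 10 genes were higher and 4 lower (60.0%, against 28.8% of all rows). Between poGC-CT and phGC-CT, 7 were higher and 2 lower (90.0%, against 64.0%). The 10 include FSHR and FOXL2 themselves. Markers of other cell types were also listed. The summed level of 15 theca and stroma markers was 1380 to 1563 CPM in poGC-KD, against 2281 to 2534 in poGC-CT. In phGC-KD it was 5486 to 6637 CPM, against 6312 to 7000 in phGC-CT. COL3A1, a fibrillar collagen, averaged 517 CPM of it in poGC-KD, 959 in poGC-CT, 4052 in phGC-KD and 4341 in phGC-CT. CYP17A1, a steroid enzyme of that list, averaged 93.0, 147, 150 and 113 CPM in the same groups. ACTA2, a smooth muscle actin, reached 970 CPM in a library, while the stromal genes LUM and DPT reached at most 1.23 and 0.20 CPM. Summed endothelial markers ran from 217 to 332 CPM, with 1 marker higher and 3 lower of 12 in poGC-KD. Among them EGFL7 averaged 49.96 CPM in poGC-KD, 15.7 in poGC-CT, 55.2 in phGC-KD and 24.5 in phGC-CT. FLT1 averaged 59.6 CPM in poGC-KD, 127 in poGC-CT, 51.0 in phGC-KD and 76.1 in phGC-CT. Sums of blood and immune cell markers ran from 61.0 to 141 CPM. PTPRC, which marks leukocytes, was at 1.93 CPM or less in every library. CD74 made up most of that sum, averaging 82.3 CPM in poGC-KD, 109 in poGC-CT, 48.8 in phGC-KD and 68.6 in phGC-CT. The sum of oocyte and germ cell markers was 3.89 to 6.39 CPM in poGC libraries and 7.20 to 10.7 CPM in phGC libraries. In these bulk samples, a different share of cells of a type and a different amount of RNA per cell cannot be told apart.

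Per transcript length, FSHR and LHCGR were the most abundant of the receptor transcripts in all groups. Levels are compared between genes as the deposited FPKM, in which fragments are scaled by transcript length and library size. FSHR averaged 56.2 ± 4.1 FPKM in poGC-KD, 56.6 ± 2.5 in poGC-CT, 29.1 ± 4.2 in phGC-KD and 25.4 ± 3.9 in phGC-CT (SD, n = 4 each). LHCGR averaged 41.2 ± 17.5, 49.8 ± 15.4, 25.8 ± 7.7 and 36.0 ± 11.4 FPKM in the same groups (SD, n = 4 each). Their libraries overlapped in every group, so that the order of FSHR and LHCGR was not resolved. NR3C1 came next everywhere, with 10.8 FPKM in poGC-KD, 7.80 in poGC-CT, 6.12 in phGC-KD and 4.55 in phGC-CT, and overlapped no neighbour in the order. The other 4 receptors averaged under 3 FPKM in every group. In poGC-KD the order went on with ESR1 (1.303 FPKM), ESR2 (0.18), PRLR (0.13) and PGR (0.067), where ESR2 and PRLR overlapped. In poGC-CT it was ESR1 (2.53 FPKM), ESR2 (0.21), PGR (0.12) and PRLR (0.083), without overlap between neighbours. Pre-hierarchical cells ranked PGR ahead of the oestrogen receptors. The order in phGC-KD was PGR (0.29 FPKM), ESR1 (0.27), ESR2 (0.14) and PRLR (0.054), with PGR and ESR1 overlapping. In phGC-CT it was PGR (0.47 FPKM), ESR1 (0.164), ESR2 (0.162) and PRLR (0.036), with ESR1 and ESR2 overlapping. The place of ESR1 in these orders depends on a transcript length that varied widely between libraries, as given below. Among all gene rows, FSHR had a mean FPKM above 93.4% of rows in poGC-KD and 83.5% in phGC-CT, while PRLR in phGC-CT was above 17.3%.

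**Figure D1:**
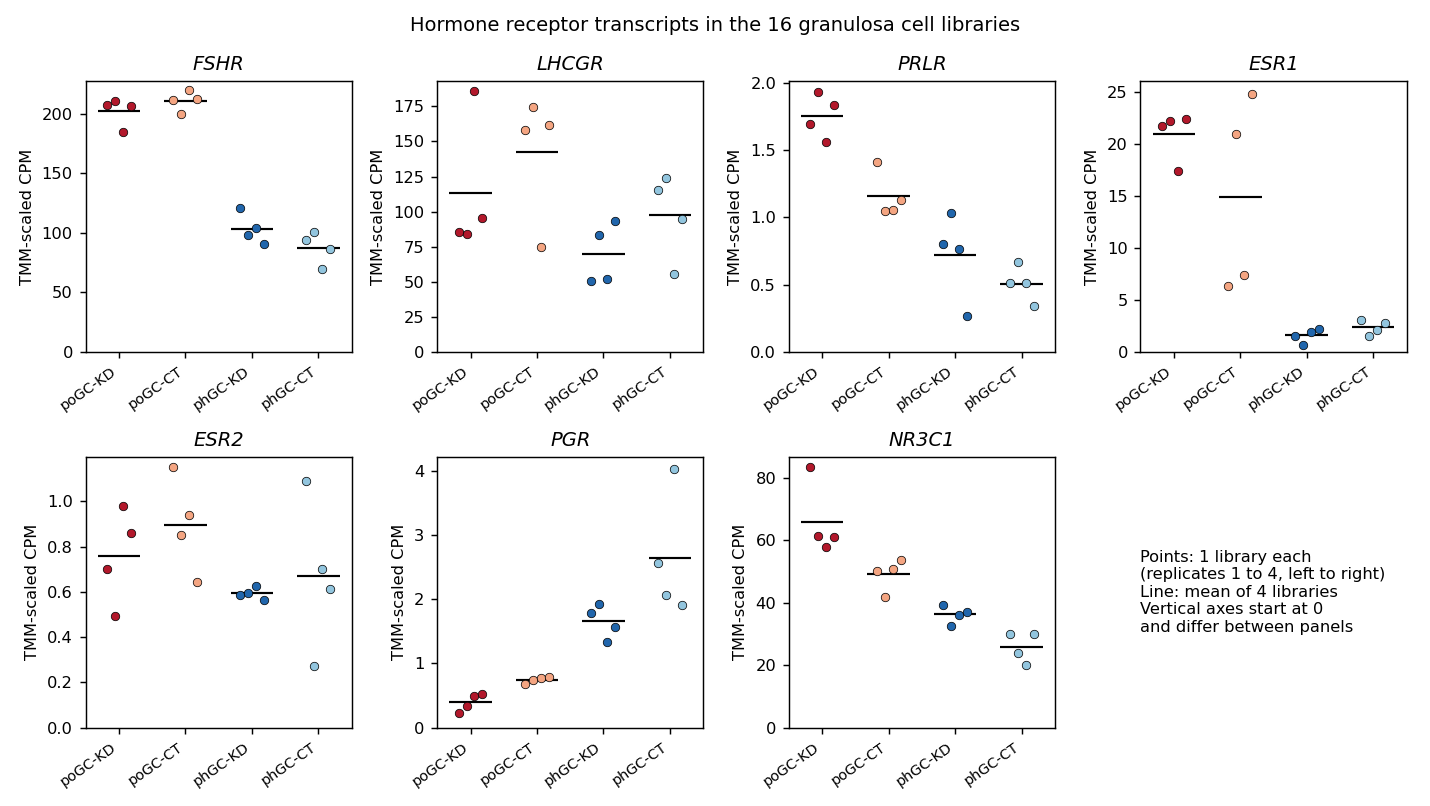
TMM-scaled CPM of the 7 receptor transcripts (vertical axes, from 0) in each of the 4 groups, 1 point per library, with the mean of 4 libraries as a line. FSHR, PRLR, ESR1 and NR3C1 stood higher in poGC than in phGC, PGR lower, and LHCGR and ESR2 overlapped between stages.

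Between stages, 5 of the 7 receptors differed, in the KD and in the CT libraries. FSHR, PRLR, ESR1 and NR3C1 were higher in poGC and PGR was lower, while LHCGR and ESR2 did not pass the test. Stage differences were common in these data. The sample labels used here name no culture batch or sequencing run. A difference between follicle stages therefore cannot be told apart from a difference in culture or run. Library totals, given above, were also mostly lower in phGC, and the part of that depth was not tested. At an edgeR adjusted p under 0.05, 61.2% of 14349 rows were called between poGC-KD and phGC-KD and 64.0% of 14089 rows between poGC-CT and phGC-CT. A share of 5 of 7 is near that background, so that it is not a result about the receptors. The same 5 did not overlap between stages, where 58.2% of rows in the KD and 60.3% in the CT libraries had no overlap. The median absolute log2 fold change of the receptors was 0.96 in the KD libraries, against 0.48 over all rows, and 1.18 in the CT libraries, against 0.52 over all rows.

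FSHR had 207, 211, 184 and 206 CPM in poGC-KD, against 121, 98.5, 104 and 90.8 CPM in phGC-KD. The stages did not overlap, and the log2 fold change was 0.96 (standard error 0.090, edgeR adjusted p = 1.88e-05). In the CT libraries, FSHR had 211, 200, 220 and 212 CPM in poGC-CT, against 94.3, 100, 69.2 and 86.4 CPM in phGC-CT. This difference was 2.41-fold, a log2 fold change of 1.27 (standard error 0.11, edgeR adjusted p = 1.23e-05). Within the poGC groups FSHR was the steadiest receptor transcript, with a coefficient of variation of 5.88% in poGC-KD and 3.96% in poGC-CT.

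LHCGR, which receives the ovulatory signal, lies next to FSHR in the RefSeq gene order but varied far more between libraries. It had 85.6, 84.3, 186 and 95.5 CPM in poGC-KD, against 50.3, 83.2, 52.2 and 93.0 CPM in phGC-KD. In the CT libraries it had 158, 175, 75.0 and 162 CPM in poGC-CT, against 115, 124, 55.5 and 95.1 CPM in phGC-CT. Stages overlapped in both. The log2 fold change was 0.69 (standard error 0.31, edgeR adjusted p = 0.0785) in the KD libraries and 0.54 (standard error 0.31, edgeR adjusted p = 0.152) in the CT libraries. Without poGC-CT replicate 3, its difference between poGC-CT and phGC-CT passed the test, at a log2 fold change of 0.76 (edgeR adjusted p = 0.0291).

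PRLR was a low transcript, counted 82 to 90 times per library in poGC-KD and 9 to 37 times in phGC-KD. Its level was 1.69, 1.93, 1.56 and 1.83 CPM in poGC-KD, against 0.80, 1.03, 0.77 and 0.27 CPM in phGC-KD, without overlap. PRLR had a log2 fold change of 1.28 there (standard error 0.35, edgeR adjusted p = 0.0113). In poGC-CT it was 1.41, 1.05, 1.05 and 1.13 CPM, against 0.51, 0.67, 0.51 and 0.34 CPM in phGC-CT (log2 fold change 1.18, standard error 0.25, edgeR adjusted p = 0.00311). JAK2, the kinase bound to the prolactin receptor, was also higher in poGC-CT, with 29.9 ± 3.6 CPM against 9.06 ± 2.0 CPM in phGC-CT (SD, n = 4 each, log2 fold change 1.72, edgeR adjusted p = 3.41e-05). The list of prolactin receptor signalling genes to which JAK2 belongs stood at the background there. Of 28 tested, 14 were higher and 4 lower (64.3%, against 64.0% of all rows).

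ESR1 showed the widest stage difference of the 7 receptors on counts. In the KD libraries it had 1052, 1037, 991 and 1039 counts in poGC-KD, against 72, 21, 69 and 74 counts in phGC-KD. That was 12.9-fold, a log2 fold change of 3.69 (standard error 0.29, edgeR adjusted p = 6.46e-06). In poGC-CT it had 227, 961, 387 and 1234 counts, against 95, 52, 67 and 90 counts in phGC-CT. The log2 fold change between poGC-CT and phGC-CT was 2.64 (standard error 0.48, edgeR adjusted p = 0.00127). The higher level in poGC also held in the deposited FPKM, which ran from 1.203 to 1.43 in poGC-KD, against 0.22 to 0.31 in phGC-KD. In poGC-CT the FPKM of ESR1 ran from 1.96 to 3.16, against 0.12 to 0.23 in phGC-CT. By limma on log2(FPKM + 0.1), which understates changes of low genes, the log2 fold change was 1.91 in the KD and 3.31 in the CT libraries. Mean FPKM was 1.303 in poGC-KD against 0.27 in phGC-KD, and 2.53 in poGC-CT against 0.164 in phGC-CT. Thus the stage difference was larger in the KD libraries on counts but larger in the CT libraries on FPKM. Its size depends on the scale, since the transcript length that relates them was 14677 to 17587 bases in poGC-KD and 2507 to 9011 in phGC-KD. ESR1 made up 83.8% to 94.5% of the summed FPKM of ESR1 and ESR2 in poGC libraries and 45.9% to 68.9% in phGC libraries. These shares depend on the same transcript length. Over the libraries, its highest value was 7.62 times the lowest for ESR1 and 1.07 times for ESR2.

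ESR2 was counted 9 to 56 times per library and overlapped between stages. It had 0.70, 0.49, 0.98 and 0.86 CPM in poGC-KD, against 0.59, 0.60, 0.63 and 0.56 CPM in phGC-KD (log2 fold change 0.35, standard error 0.27, edgeR adjusted p = 0.282). In poGC-CT it had 1.15, 0.85, 0.94 and 0.64 CPM, against 1.09, 0.27, 0.70 and 0.61 CPM in phGC-CT (log2 fold change 0.42, standard error 0.39, edgeR adjusted p = 0.38). At these counts, a difference of that size was not resolved. MTHFD1, a folate enzyme gene whose span overlaps that of ESR2 in the RefSeq annotation, was far higher, at 44.3 to 67.5 CPM. The log2 fold change of MTHFD1 was -0.24 between poGC-KD and phGC-KD (edgeR adjusted p = 0.0462), -0.50 between poGC-CT and phGC-CT (edgeR adjusted p = 9.41e-05) and 0.23 with knockdown in poGC (edgeR adjusted p = 0.0265).

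PGR, alone among the 5 receptors called, was lower in poGC than in phGC. It had 0.23, 0.34, 0.49 and 0.52 CPM in poGC-KD, against 1.78, 1.92, 1.34 and 1.57 CPM in phGC-KD. That was 4.18-fold lower at the later stage (log2 fold change -2.06, standard error 0.30, edgeR adjusted p = 0.00029). In poGC-CT it had 0.68, 0.74, 0.77 and 0.78 CPM, against 2.56, 2.07, 4.03 and 1.90 CPM in phGC-CT (log2 fold change -1.82, standard error 0.27, edgeR adjusted p = 0.000326). The summed theca and stroma markers given above were also lowest in poGC-KD and highest in phGC-CT, and their part in the PGR result was not tested. Between stages that order is carried by the collagens. With knockdown ACTA2 had a large part in it, averaging 395 CPM in poGC-KD, 894 in poGC-CT, 363 in phGC-KD and 745 in phGC-CT. In poGC the collagen COL3A1 had a large part as well, averaging 517 CPM in poGC-KD and 959 in poGC-CT. Of 14 listed markers tested, 4 were higher and 6 lower in poGC-CT than in phGC-CT (71.4%, against 64.0% of all rows). DCN, decorin, averaged 7.51 CPM in poGC-CT and 0.30 CPM in phGC-CT.

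NR3C1 had 83.6, 61.5, 57.9 and 61.0 CPM in poGC-KD, against 39.3, 32.7, 36.0 and 37.0 CPM in phGC-KD (log2 fold change 0.85, standard error 0.12, edgeR adjusted p = 0.000199). In poGC-CT it had 50.2, 41.7, 50.9 and 53.8 CPM, against 30.0, 23.9, 19.99 and 30.1 CPM in phGC-CT (log2 fold change 0.92, standard error 0.15, edgeR adjusted p = 0.00056). Stages did not overlap in either comparison. Of the genes known to respond to glucocorticoids, 14 were higher and 7 lower of 22 tested in poGC-CT against phGC-CT (95.5%, against 64.0% of all rows). In poGC-KD against phGC-KD, 11 were higher and 6 lower of 23 tested (73.9%, against 61.2% of all rows). FKBP5, a chaperone of the glucocorticoid receptor and a standard target of it in mammals, averaged 1114 ± 16 CPM in poGC-CT and 247 ± 5.0 CPM in phGC-CT (SD, n = 4 each, log2 fold change 2.17, edgeR adjusted p = 5.16e-09). ZBTB16, a zinc finger gene induced by glucocorticoids in human cells, averaged 176 ± 3.8 CPM in poGC-CT and 24.5 ± 1.3 CPM in phGC-CT (SD, n = 4 each). CRISPLD2 of the same list was lower in poGC-CT, at 6.72 ± 0.75 CPM against 40.4 ± 6.1 CPM in phGC-CT (SD, n = 4 each).

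**Figure D2:**
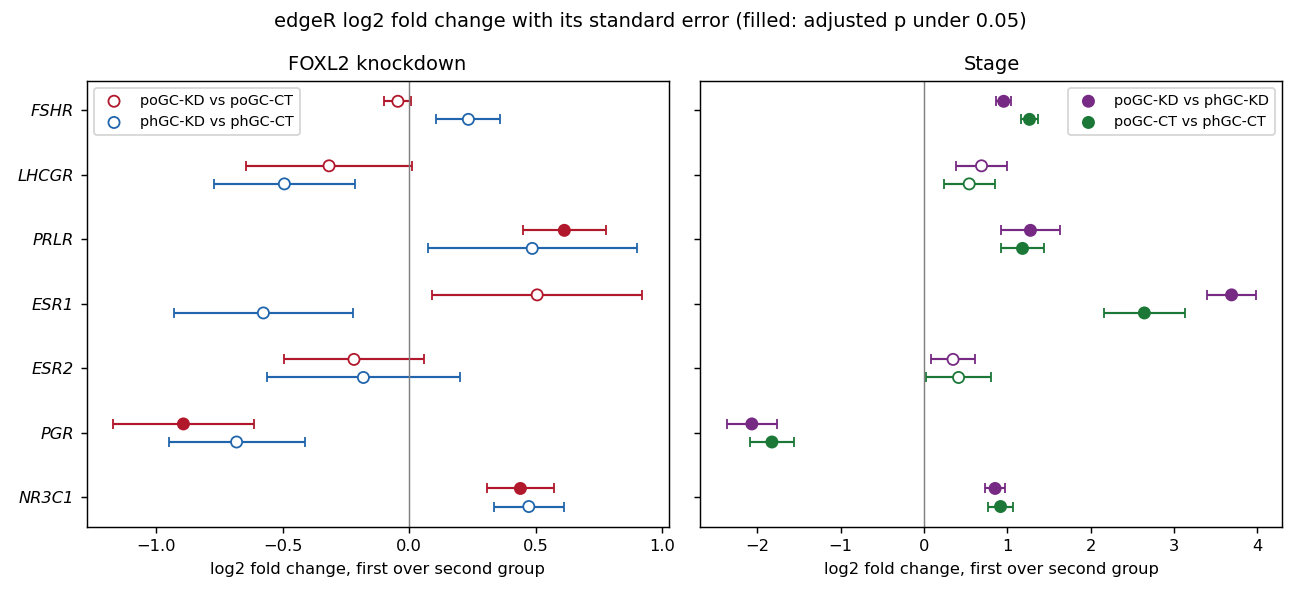
The edgeR log2 fold change (horizontal axis, first over second group) of the 7 receptors with its standard error as bars, for FOXL2 knockdown in poGC and phGC and for stage in KD and CT libraries, filled where the adjusted p was under 0.05. With knockdown, PRLR, PGR and NR3C1 were filled in poGC and no receptor in phGC, and between stages 5 receptors were filled in both comparisons.

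With FOXL2 knockdown in poGC, PRLR and NR3C1 rose and PGR fell, so that 3 of the 7 receptors changed. FSHR, LHCGR, ESR1 and ESR2 did not pass the test. Over all 14379 rows tested, 28.8% were called at an edgeR adjusted p under 0.05, 15.2% higher and 13.6% lower. With 2 of 7 higher and 1 of 7 lower, the receptors lay somewhat above those shares, a difference of about 1 gene. At a fold change above 1.5 with an unadjusted p under 0.05, 2 of 7 passed (PRLR and PGR), against 11.2% of all rows. In 3 of 7 no poGC-KD library overlapped those of poGC-CT, against 31.9% of all rows. Each of the 3 calls was lost without certain single libraries. When each library was left out in turn, the number of receptors called fell to between 0 and 2.

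PRLR rose in poGC-KD to 1.69, 1.93, 1.56 and 1.83 CPM, against 1.41, 1.05, 1.05 and 1.13 CPM in poGC-CT. Every poGC-KD library lay above every poGC-CT library, at 82 to 90 counts against 48 to 56 counts. The log2 fold change was 0.61 (standard error 0.16, edgeR adjusted p = 0.0232), 1.53-fold. The call was lost without any of 5 of the 8 libraries (poGC-KD replicates 2 and 4 and poGC-CT replicates 2, 3 and 4, edgeR adjusted p up to 0.0722) and in a fit of all 16 libraries (edgeR adjusted p = 0.189). The span of SPEF2, a sperm flagellar gene, overlaps that of PRLR in the RefSeq annotation. Whether their exons overlap was not tested. Without strand information, reads cannot be told apart where exons of the genes overlap. SPEF2 rose in the same libraries, to 1.88, 1.4995, 1.86 and 2.11 CPM in poGC-KD, against 0.76, 0.31, 0.63 and 0.85 CPM in poGC-CT (log2 fold change 1.54, standard error 0.30, edgeR adjusted p = 0.00538). Between poGC-KD and phGC-KD, SPEF2 differed in the direction of PRLR as well, by 1.93 on the log2 scale (edgeR adjusted p = 9.06e-05). Between poGC-CT and phGC-CT, where PRLR was called, SPEF2 was not (log2 fold change 0.56, edgeR adjusted p = 0.329), and in phGC its knockdown log2 fold change was 0.14 (edgeR adjusted p = 0.862). Its part in the PRLR count was not tested.

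NR3C1 rose in poGC-KD to 83.6, 61.5, 57.9 and 61.0 CPM, against 50.2, 41.7, 50.9 and 53.8 CPM in poGC-CT. The groups did not overlap, and poGC-KD replicate 1 was highest by a wide margin. The log2 fold change was 0.44 (standard error 0.13, edgeR adjusted p = 0.0356), 1.36-fold. Without that replicate the log2 fold change was 0.29 (edgeR adjusted p = 0.0446). The call was lost without any of 6 other libraries (poGC-KD replicates 2 and 4 and each poGC-CT library, edgeR adjusted p up to 0.0876). The direction of NR3C1 was the same in every setting tried.

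PGR fell in poGC-KD to 0.23, 0.34, 0.49 and 0.52 CPM, against 0.68, 0.74, 0.77 and 0.78 CPM in poGC-CT. These levels rest on 11, 16, 28 and 24 counts in poGC-KD, against 24, 34, 40 and 39 counts in poGC-CT. The CPM values did not overlap. PGR was 1.86-fold lower, a log2 fold change of -0.89 (standard error 0.28, edgeR adjusted p = 0.0422). The call was lost when any library other than poGC-KD replicate 4 was left out (edgeR adjusted p up to 0.104) and with DESeq2 (adjusted p = 0.0514). The summed theca and stroma markers were also lower in poGC-KD, 1380 to 1563 CPM against 2281 to 2534 CPM in poGC-CT, and their part in the fall of PGR was not tested. Members of that list went both ways, with 3 higher and 5 lower of 13 tested (61.5%, against 28.8% of all rows). ACTA2, a smooth muscle actin, averaged 395 CPM in poGC-KD and 894 CPM in poGC-CT, whereas PTCH1, a hedgehog receptor, averaged 36.2 CPM in poGC-KD and 22.5 CPM in poGC-CT. PAQR7, a membrane progestin receptor, fell as well, to 27.5 ± 1.1 CPM in poGC-KD, against 39.1 ± 4.2 CPM in poGC-CT (SD, n = 4 each, log2 fold change -0.49, edgeR adjusted p = 0.00179).

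FSHR had 207, 211, 184 and 206 CPM in poGC-KD, against 211, 200, 220 and 212 CPM in poGC-CT. The log2 fold change was -0.04 (standard error 0.054, edgeR adjusted p = 0.588), the smallest and most precisely measured of the 7. LHCGR split the libraries of both groups. Its level was 186 CPM in poGC-KD replicate 3 and 84.3 to 95.5 CPM in the other poGC-KD libraries, against 75.0 CPM in poGC-CT replicate 3 and 158 to 175 CPM in the other poGC-CT libraries. Its log2 fold change was -0.32 (standard error 0.33, edgeR adjusted p = 0.521). FOXL2 in these 2 libraries was at the level of their labelled groups, 472 CPM in poGC-KD replicate 3 and 769 CPM in poGC-CT replicate 3. ESR2 had a log2 fold change of -0.22 (standard error 0.28, edgeR adjusted p = 0.607) and its groups overlapped.

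**Figure D3:**
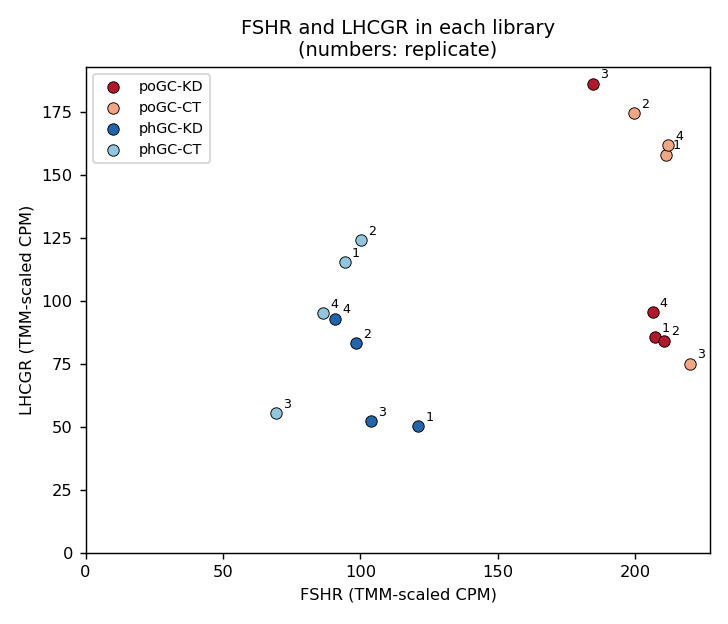
LHCGR (vertical axis) against FSHR (horizontal axis) in TMM-scaled CPM, 1 point per library with its replicate number. Along FSHR the poGC libraries stand at 184 to 220 CPM and the phGC libraries at 69.2 to 121 CPM, while along LHCGR poGC-KD replicate 3 stands at 186 CPM and poGC-CT replicate 3 at 75.0 CPM, each apart from its group.

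In phGC, none of the 7 receptors passed an edgeR adjusted p of 0.05 with knockdown, against 9.97% of 13829 rows. At an unadjusted p under 0.05 edgeR gave 2 (NR3C1 and PGR, against 26.3% of all rows), 1 of them, PGR, with a fold change above 1.5 (against 7.27% of all rows). DESeq2 with adjustment gave 1 (NR3C1), and limma on log2(FPKM + 0.1) gave 0 of the 3 that passed its filter. NR3C1 had 39.3, 32.7, 36.0 and 37.0 CPM in phGC-KD, against 30.0, 23.9, 19.99 and 30.1 CPM in phGC-CT, 1 of 7 without overlap, where 18.3% of all rows had none. Its log2 fold change was 0.47 (standard error 0.14, edgeR adjusted p = 0.0631), close to the value in poGC. PGR had 1.78, 1.92, 1.34 and 1.57 CPM in phGC-KD, against 2.56, 2.07, 4.03 and 1.90 CPM in phGC-CT (log2 fold change -0.68, standard error 0.27, edgeR adjusted p = 0.147).

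None of the other receptors passed in phGC. FSHR had a log2 fold change of 0.23 (standard error 0.13), LHCGR of -0.49 (0.28), PRLR of 0.49 (0.41), ESR1 of -0.58 (0.35) and ESR2 of -0.18 (0.38), with edgeR adjusted p between 0.279 and 0.796. phGC-KD replicate 4 had 9 PRLR counts, or 0.27 CPM, below all phGC-CT libraries, and the other phGC-KD libraries lay above all of them.

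Whether the knockdown effect differed between the stages was tested as the difference of the log2 fold changes, poGC minus phGC, in 1 model of 16 libraries. No receptor passed on counts, where 9.25% of 14775 rows did. At an unadjusted p under 0.05 edgeR gave 0, against 21.7% of all rows, and DESeq2 gave 1, and DESeq2 with adjustment gave 0. The difference was -0.06 (standard error 0.20) for NR3C1, 0.10 (0.45) for PRLR and -0.23 (0.38) for PGR. Thus the calls in poGC and their lack in phGC were not shown to differ. The largest differences were 1.05 for ESR1 (standard error 0.58, edgeR adjusted p = 0.323) and -0.30 for FSHR (standard error 0.14, edgeR adjusted p = 0.244).

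ESR1 was the receptor for which counts and FPKM went apart with knockdown. On counts it was level or higher in poGC-KD, at 21.7, 22.2, 17.4 and 22.4 CPM, against 6.39, 21.0, 7.42 and 24.8 CPM in poGC-CT, a log2 fold change of 0.51 (standard error 0.41, edgeR adjusted p = 0.412). On FPKM it was lower, at 1.29, 1.29, 1.203 and 1.43 in poGC-KD, against 2.48, 1.96, 3.16 and 2.5006 in poGC-CT, without overlap. Limma on log2(FPKM + 0.1) gave a log2 fold change of -0.89 (adjusted p = 0.00212). In phGC the scales also went apart. ESR1 had 1.56, 0.70, 1.96 and 2.20 CPM in phGC-KD, against 3.04, 1.58, 2.14 and 2.76 CPM in phGC-CT, while its FPKM was 0.31, 0.28, 0.22 and 0.29 in phGC-KD, against 0.23, 0.12, 0.14 and 0.17 in phGC-CT. The difference of the knockdown effect between stages was 1.05 on counts and -1.40 on log2(FPKM + 0.1) (limma adjusted p = 0.00151).

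The transcript length that turns a count into its FPKM, given the library total, shows where the scales part. For ESR1 it was 14677 to 17587 bases in poGC-KD, against 2307 to 10381 in poGC-CT. In phGC-KD it was 2507 to 9011 bases, against 13619 to 16327 in phGC-CT. The highest was 7.62 times the lowest, more than in 99.6% of 13691 rows, where the median row had a ratio of 1.09. For the other 6 receptors that ratio was 1.06 to 1.15, and their counts and FPKM gave the same direction with knockdown at each stage. Which transcripts of ESR1 were counted was not tested.

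**Figure D4:**
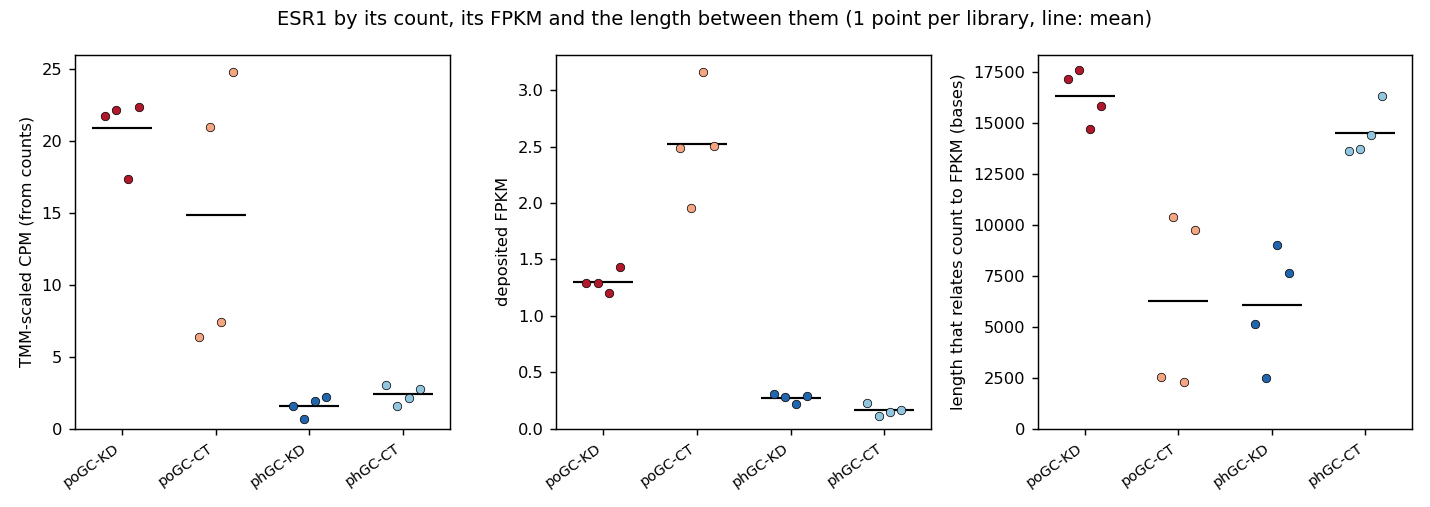
ESR1 in each library as TMM-scaled CPM (left), as deposited FPKM (middle) and as the length in bases that relates count to FPKM (right), 1 point per library with the group mean as a line. In poGC-CT the CPM splits into 6.39 and 7.42 against 21.0 and 24.8 while the FPKM stays between 1.96 and 3.16, and the length runs from 2307 to 17587 bases over the libraries.

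The balance of FSHR to LHCGR was compared as the log2 ratio of their counts. It averaged 0.92 ± 0.63 in poGC-KD and 0.64 ± 0.62 in poGC-CT (SD, n = 4 each, two-sided exact permutation test, p = 0.486). In phGC it averaged 0.62 ± 0.61 in phGC-KD and -0.10 ± 0.29 in phGC-CT (SD, n = 4 each, two-sided exact permutation test, p = 0.0857). Between stages the exact p was 0.429 in the KD libraries and 0.0571 in the CT libraries. Adjusted over these 4 comparisons, the exact p was 0.171 to 0.486, where 4 libraries against 4 allow 0.0286 unadjusted.

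Genes around the receptors were described with 8 lists. The lists were chosen with earlier results of these data known, so that their shares beside those of all rows are a description and not a test. Other hormone and nuclear receptors changed at about the background rate in poGC, 5 higher and 6 lower of 33 tested with knockdown (33.3%, against 28.8% of all rows). ESRRB, an orphan relative of the oestrogen receptors, fell to 32.8 ± 0.29 CPM in poGC-KD, against 51.0 ± 1.7 CPM in poGC-CT (SD, n = 4 each, log2 fold change -0.62, edgeR adjusted p = 1.96e-05). VIPR1, a receptor of vasoactive intestinal peptide, rose to 42.2 ± 2.3 CPM in poGC-KD, against 29.2 ± 2.8 CPM in poGC-CT (SD, n = 4 each, log2 fold change 0.55, edgeR adjusted p = 0.00111). In phGC, 0 of 29 passed by edgeR, against 9.97% of all rows. Without adjustment, 11 of 29 had an edgeR p under 0.05, against 26.3% of all rows. With adjustment DESeq2 gave 4 of 26 and limma on log2(FPKM + 0.1) gave 2 of 24. VIPR2 and ADCYAP1R1, receptors of the same peptide family, were among the stage differences. VIPR2 averaged 25.8 ± 3.3 CPM in poGC-CT and 1.59 ± 0.45 CPM in phGC-CT, and ADCYAP1R1 averaged 22.2 ± 4.8 CPM in poGC-CT and 2.08 ± 0.17 CPM in phGC-CT (SD, n = 4 each).

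Downstream of the gonadotropin receptors, 7 of 42 signal transduction genes rose and 6 fell in poGC-KD (31.0%, against 28.8%). RAPGEF3, a cAMP-activated exchange factor, rose (log2 fold change 0.39, edgeR adjusted p = 0.000413). GRK5, a kinase that desensitizes receptors, fell (log2 fold change -0.59, edgeR adjusted p = 0.000769). In phGC-KD, 3 of 40 rose and 1 fell, a share at the background (9.97% of all rows). The genes called there included the phosphodiesterase PDE8A (log2 fold change 0.60) and the adenylyl cyclase ADCY2 (log2 fold change -0.74). Of the genes that respond to gonadotropins, 3 rose and 12 fell of 24 in poGC-KD (62.5%, against 28.8%), with a median log2 fold change of -0.41, against 0.01 over all rows. As this list was chosen with earlier results known, its share does not test a response of such genes. PTGS2, the inducible prostaglandin synthase, fell to 202 ± 18 CPM in poGC-KD, against 433 ± 26 CPM in poGC-CT (SD, n = 4 each, log2 fold change -1.09, edgeR adjusted p = 1.72e-05). PLAU, the urokinase plasminogen activator, fell to 84.1 ± 12.9 CPM in poGC-KD, against 290 ± 30 CPM in poGC-CT (SD, n = 4 each, log2 fold change -1.77, edgeR adjusted p = 1.96e-05). AMH, the anti-Müllerian hormone, fell to 26.1 ± 3.4 CPM in poGC-KD, against 49.0 ± 1.8 CPM in poGC-CT (SD, n = 4 each), and PLAT, the tissue plasminogen activator, rose to 25.1 ± 1.8 CPM in poGC-KD, against 14.6 ± 1.3 CPM in poGC-CT (SD, n = 4 each). In phGC-KD, 1 rose and 2 fell of 22 (13.6%, against 9.97% of all rows), where PLAU fell with a log2 fold change of -0.79 (edgeR adjusted p = 0.016). The knockdown effect on 11 of 24 of these genes differed between stages (9.25% of all rows), including AMH, with a difference of -1.11 (edgeR adjusted p = 0.00263), and PTGS2, with a difference of -0.74 (edgeR adjusted p = 0.00316).

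Of the prolactin receptor signalling genes, 9 of 29 rose and 5 fell in poGC-KD (48.3%, against 28.8% of all rows). The 9 include SPEF2, which was listed because it overlaps PRLR and not for a role in this pathway. SOCS1 and SOCS3, feedback inhibitors of JAK and STAT signalling, fell, SOCS1 to 171 ± 6.4 CPM in poGC-KD, against 268 ± 18 CPM in poGC-CT, and SOCS3 to 49.1 ± 3.9 CPM in poGC-KD, against 69.2 ± 1.5 CPM in poGC-CT (SD, n = 4 each). The phosphatase PTPN1 fell as well (log2 fold change -0.33, edgeR adjusted p = 0.000382). In phGC-KD, 1 of 27 rose, the transcription factor STAT6 (log2 fold change 0.48, edgeR adjusted p = 0.00893), against 9.97% of all rows. At an unadjusted p under 0.05 edgeR gave 9 of 27, against 26.3% of all rows. With adjustment DESeq2 gave 6 of 25 and limma on log2(FPKM + 0.1) gave 2 of 24. The effect on SOCS3 differed between stages by -0.74 (edgeR adjusted p = 0.00139). These genes serve many cytokine receptors besides PRLR.

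The partners of the steroid receptors were listed as coregulators and chaperones. Of 35 coregulators tested, 11 rose and 3 fell in poGC-KD (14 of 35, against 28.8% of all rows), and 4 rose and 2 fell in phGC-KD (17.1%, against 9.97%). NR0B1, also called DAX1, a repressor of nuclear receptors, rose to 4.88 ± 0.97 CPM in poGC-KD, against 2.31 ± 0.33 CPM in poGC-CT, and to 53.6 ± 16.2 CPM in phGC-KD, against 22.4 ± 2.4 CPM in phGC-CT (SD, n = 4 each). FHL2, a LIM-domain coactivator, fell in poGC-KD (log2 fold change -1.77, edgeR adjusted p = 4.53e-05) and in phGC-KD (log2 fold change -1.37, edgeR adjusted p = 0.0246). The p160 coactivators NCOA1 and NCOA2 rose in phGC-KD, by log2 fold changes of 0.59 and 0.66. No coregulator passed the edgeR test of a difference between stages, where 9.25% of all rows did. Without adjustment, 9 of 35 had an edgeR p under 0.05, against 21.7% of all rows, and DESeq2 with adjustment gave 2. Among 18 chaperones, 3 rose and 2 fell in poGC-KD (27.8%), a share near the 28.8% of all rows. HSPA2, an HSP70 protein, fell to 324 ± 52 CPM in poGC-KD, against 852 ± 89 CPM in poGC-CT, and to 376 ± 19 CPM in phGC-KD, against 564 ± 28 CPM in phGC-CT (SD, n = 4 each). FKBP5 rose in both, to 1294 ± 57 CPM in poGC-KD, against 1114 ± 16 CPM in poGC-CT, and to 353 ± 19 CPM in phGC-KD, against 247 ± 5.0 CPM in phGC-CT (SD, n = 4 each). The rise of FKBP5 was smaller in poGC, by -0.30 on the log2 scale (edgeR adjusted p = 0.00751). Chaperones were mostly lower in poGC-CT than in phGC-CT, with 4 higher and 12 lower of 18 (88.9%, against 64.0% of all rows). Between poGC-KD and phGC-KD, 2 were higher and 10 lower of 18, a share near the background (66.7%, against 61.2% of all rows). HSP90AB1, a partner of unliganded steroid receptors, averaged 295 ± 14 CPM in poGC-CT and 595 ± 28 CPM in phGC-CT (SD, n = 4 each).

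Genes that respond to glucocorticoids did not move in 1 direction with knockdown, with 6 higher and 7 lower of 23 in poGC-KD (56.5%) and 4 higher and 3 lower of 22 in phGC-KD (31.8%). Both shares stood above those of all rows, 28.8% and 9.97%. GLUL, glutamine synthetase, rose in both stages (log2 fold change 0.75 in poGC and 0.47 in phGC). ANGPTL4, an inhibitor of lipoprotein lipase, fell to 1424 ± 68 CPM in poGC-KD, against 2087 ± 64 CPM in poGC-CT (SD, n = 4 each, log2 fold change -0.54, edgeR adjusted p = 6.29e-05). PDK4, a kinase of pyruvate dehydrogenase, also fell there (log2 fold change -0.61, edgeR adjusted p = 7.54e-05).

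The last list held known regulators of receptor gene transcription, and also MVK, whose role given below is in binding mRNA. In poGC-KD, 7 of 25 rose and 6 fell (52.0%, against 28.8% of all rows), and in phGC-KD 5 rose and 1 fell (24.0%, against 9.97%). GATA4, a zinc finger factor of granulosa cells, rose to 235 ± 15 CPM in poGC-KD, against 139 ± 9.5 CPM in poGC-CT, and to 294 ± 31 CPM in phGC-KD, against 166 ± 22 CPM in phGC-CT (SD, n = 4 each). CTNNB1, which encodes beta-catenin, fell to 656 ± 24 CPM in poGC-KD, against 947 ± 10 CPM in poGC-CT, and to 697 ± 46 CPM in phGC-KD, against 933 ± 22 CPM in phGC-CT (SD, n = 4 each). NR5A2, or LRH-1, rose in poGC-KD (log2 fold change 1.07, edgeR adjusted p = 5.42e-06), and NR5A1, or SF-1, rose in phGC-KD (log2 fold change 0.52, edgeR adjusted p = 0.0025). The NR5A1 effect differed between stages by -0.46 (edgeR adjusted p = 0.00644). Between stages, NR5A2 averaged 94.4 ± 5.1 CPM in poGC-CT and 0.84 ± 0.41 CPM in phGC-CT (SD, n = 4 each). MVK, mevalonate kinase, which in the rat also binds the LHCGR mRNA, averaged 32.4 ± 2.1 CPM in poGC-CT and 147 ± 17 CPM in phGC-CT (SD, n = 4 each).

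**Figure D5:**
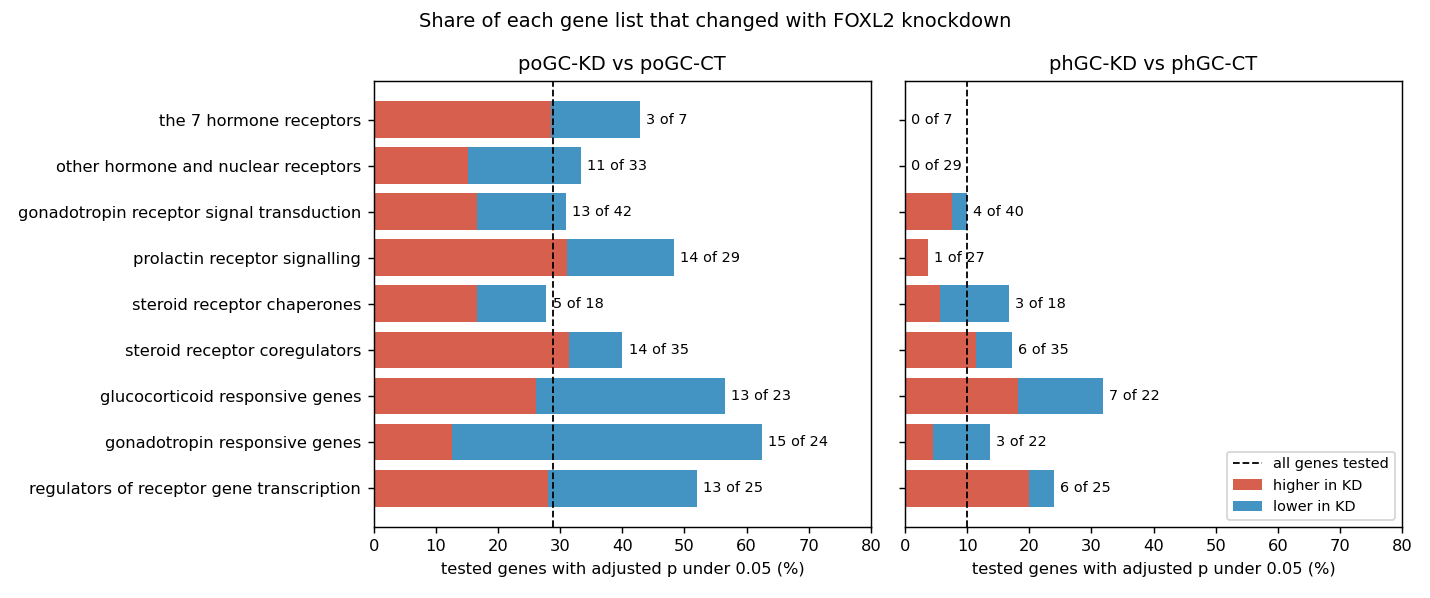
Percentage of the tested genes of each list with an edgeR adjusted p under 0.05 (horizontal axis) in poGC-KD against poGC-CT (left) and phGC-KD against phGC-CT (right), red for higher and blue for lower in KD, with the share of all rows as a dashed line. The list of gonadotropin responsive genes stands at 62.5% in poGC, mostly lower, and the 7 receptors stand at 3 of 7 in poGC and 0 of 7 in phGC. The lists were chosen with earlier results of these data known.

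The genes whose log2 CPM followed each receptor most closely over the 16 libraries are given as a description, since the libraries share their stage and siRNA. FSHR ran closest with C5ORF22 (Pearson r = 0.993), DGKQ (0.991), a diacylglycerol kinase, and UBQLN1 (0.990), a ubiquilin, among 11638 rows. With the group means removed, r was 0.910, 0.920 and 0.870. NR3C1 ran close with DICER1 and EXOC6B (r = 0.974 each). PGR ran closest with CD59 (0.972), a complement inhibitor, FBLN1 (0.966), fibulin, and PLAU (0.965). ESR1 ran closest with SYT2 (0.956), VEGFA (0.952), a vascular growth factor, and LOC101752252 (0.950). With the group means removed, r was 0.57 to 0.69 for the neighbours of PGR and 0.51 to 0.61 for those of ESR1. PRLR ran closest with RFK (0.930), riboflavin kinase, ZNF507 (0.927) and ZNF518A (0.926). LHCGR and ESR2 had neighbours of lower r over the 16 libraries. LHCGR ran closest with PIGV (0.820), TRMT11 (0.745) and MOB3B (0.743), and ESR2 with L3MBTL1 (0.827), SREK1IP1 (0.771) and SRL (0.730). With the group means removed, r was 0.55 to 0.76 for the neighbours of LHCGR and 0.63 to 0.78 for those of ESR2, not below those of PGR and ESR1. Between receptors, with the group means removed, r ran from -0.68 (PGR and NR3C1) to 0.52 (FSHR and NR3C1).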

How the data were processed

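The authors deposited, for each of the 16 libraries, a raw count and an FPKM value per gene. Both are the authors' own values, the counts without normalization and the FPKM divided by mapped fragments and by transcript length. The study's methods name TopHat2 and the Gallus_gallus-5.0 genome, whereas the submitters' processing notes list HISAT2 2.1.0, StringTie 1.3.4d and DESeq2 1.26.0. The counting program, annotation and strand are not given in the sources used here. In each group the library totals exceeded the numbers of clean read pairs that the study's supplement lists. Counts are therefore not numbers of independent fragments.

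Counts were tested by edgeR 4.0.16 in R 4.3.3 (TMM, filterByExpr, quasi-likelihood test, Benjamini-Hochberg adjustment over all rows tested, threshold 0.05, no block). Each KD group was compared with its CT group, poGC with phGC, and the knockdown effects with each other as an interaction over all 16 libraries. The ratio of FSHR to LHCGR was tested with an exact permutation test, two-sided, with 70 choices of 4 libraries among 8 (scipy 1.17.1). Alternatives were upper-quartile scaling, DESeq2 1.42.0, all rows with a count, rows with at least 10 counts in every library, a fit of all 16 libraries, limma 3.58.1 on log2(FPKM + 0.1) for rows at an FPKM of at least 0.5 in at least 4 libraries, the replicate number as a block, and leaving out each library. Limma on log2(FPKM + 0.01) without a filter, and the ratio of FPKM, were added after seeing the data.

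The members and lists were chosen with earlier results of these data known. The 7 receptors and FOXL2 were always named. From each list up to 4 called genes per comparison with the smallest adjusted p could be named, and for each receptor the 3 rows of highest Pearson r over the libraries at a mean log2 CPM of at least 1 (prior count 1). Genes overlapping a receptor in RefSeq and marker genes were named beside it. Some genes that this rule names are not reported here. Counts were also simulated from the mean levels of all 16 libraries and the spread typical of each level, with changes added in poGC-KD only. Between simulated poGC-KD and poGC-CT, edgeR recovered 25 of 97 genes changed 1.5-fold and 66 of 97 changed 2-fold, with 1 false call. In this simulation most 1.5-fold changes were thus missed. Levels and spread were not those of poGC alone. Far fewer rows were changed than the 4138 called in the real comparison, which makes the adjusted threshold stricter. For both reasons these shares do not measure recovery in the real poGC comparison. Gene names, neighbours and overlaps came from RefSeq GRCg7b. An overlap is one of whole gene spans in that build, not of exons. It was not checked in the genome that the study names.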

Additional observations from a re-analysis of the deposited data

Results flagged for a closer look

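Over 28 groups of 4 libraries (7 receptors in 4 groups), a single library stood far from the other 3 in 5, where chance gives about 1 in 20. FSHR in poGC-KD replicate 3 was lowest of its group, at 184 CPM, the nearest library having 206 CPM. LHCGR in poGC-KD replicate 3 was highest, at 186 CPM, the nearest having 95.5 CPM. In poGC-CT replicate 3 LHCGR was lowest, at 75.0 CPM, the nearest having 158 CPM. ESR1 in poGC-KD replicate 3 was lowest, at 17.4 CPM, the nearest having 21.7 CPM. NR3C1 in poGC-KD replicate 1 was highest, at 83.6 CPM, the nearest having 61.5 CPM. Thus 3 of the 5 fell in poGC-KD replicate 3, whose total was the highest of all libraries at 56121795 counts, and the part of that depth in these values was not tested.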

How the results depend on the processing

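The stage calls of FSHR, PRLR, PGR, ESR1 and NR3C1 held under every setting that could give them a value, and 3 of 4 receptors were called in both stage comparisons by limma on log2(FPKM + 0.1), whose filter removed PRLR, PGR and ESR2. Receptors called without 1 library numbered 5 to 6 in poGC-CT and 5 in poGC-KD against phGC, 0 to 2 in place of 3 for knockdown in poGC, 0 to 1 in place of 0 in phGC and 0 for the difference between stages. Without poGC-KD replicate 2 or poGC-CT replicate 2, 3 or 4, none was called in poGC, and without poGC-KD replicate 4 or poGC-CT replicate 1, 1 was called. In phGC, DESeq2, the fit of all 16 libraries and leaving out phGC-CT replicate 1 each called 1, NR3C1 (log2 fold change 0.47, 0.48 and 0.55). Over all rows, the calls in phGC were 1379 by edgeR, 2284 by DESeq2, 2575 in the fit of all 16 libraries, and 662 to 1949 without 1 library. For the difference between stages, limma called 1 receptor, ESR1, on log2(FPKM + 0.1) and with 0.01 in place of 0.1.

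ESR1 changed direction on FPKM, with log2 fold changes of -0.89 and -0.93 in poGC and differences between stages of -1.40 and -1.66 at pseudocounts of 0.1 and 0.01, and of 0.73 in phGC at 0.01. The differing transcript lengths behind its counts and FPKM are given above, and their cause was not tested. The other changes of direction were in values that never passed the test. Without 1 library, ESR2 in phGC ran from -0.44 to 0.15. The difference between stages then ran from -0.21 to 0.36 for LHCGR, whose sign turned without poGC-KD replicate 3 or poGC-CT replicate 3, from -0.17 to 0.32 for PRLR, from -0.40 to 0.21 for ESR2 and from -0.19 to 0.057 for NR3C1. On FPKM that of NR3C1 was 0.015 and 0.011.

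Libraries of the same replicate number did not deviate together (r of -0.08 to 0.10), so that the numbers were not taken as pairs. With the replicate block, 1 receptor was called in poGC, NR3C1, and LHCGR passed between poGC-CT and phGC-CT (log2 fold change 0.54, adjusted p = 0.0016). Counts were under 100 for PRLR and ESR2 in every library, for PGR in all but 1, and for ESR1 in every phGC library, which limits their precision. As library totals exceeded the read pairs, the independent fragments behind these counts may be fewer still.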

Other observations

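MOB3B, which ran with LHCGR, had its high mean in poGC-KD (430 CPM) from a single library, and it averaged 10.1 CPM in poGC-CT, 0.40 in phGC-KD and 1.95 in phGC-CT. The cause was not tested.

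The FPKM ratio of NR3C1 to PGR, both of which bind a steroid and share their DNA element, was 112 to 374 in poGC-KD, against 53.9 to 69.3 in poGC-CT. In phGC-KD it was 16.6 to 25.1, against 4.85 to 16.2 in phGC-CT, so that no group overlapped another, in phGC by a narrow gap. NR3C1 and PGR had already been seen to go opposite ways with stage and with knockdown. The lack of overlap is therefore not a result of its own. This ratio was formed after its parts had been seen and was not tested.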
